A study of Homo sapiens with 6 samples.

Results

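The genes described here encode the proteins that bring newly made chains to the endoplasmic reticulum (ER), thread them through its membrane or insert them into it, and trim their signal peptides. The list was fixed by gene name and held 42 genes, of 19775 genes with a probe set named to them alone. It covered the signal recognition particle (SRP, 6 genes), its receptor (2), the Sec61 channel with Sec63 (5), the translocon-associated protein complex (TRAP, 4), TRAM (2), signal peptidase (5), signal peptide peptidase (1), the ribosome-associated translocon proteins SERP1 and RRBP1 (2), the GET system for tail-anchored proteins (6) and the ER membrane protein complex (EMC, 9). A probe set named to the gene alone was found for 41 of the 42, and all 41 were tested, since each reached a signal of 100 on 2 or more of the 6 arrays. SEC61G, the small tail-anchored subunit of the channel, had no probe set named to it in the annotation used and was not analysed here.

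RNA came from Daoy cells, an established human medulloblastoma line, which were left untreated or given 1 µM thapsigargin (Tg) for 3 h or 8 h. Thapsigargin blocks the calcium pump of the ER, empties its calcium store and sets off the unfolded protein response (UPR). Each of the 3 groups was measured on 2 Affymetrix arrays, numbered replicate 1 and replicate 2, of RNA from independent experiments in the same cell line. Values are MAS5 signals, a brightness on a linear scale with the same trimmed mean on every array, and changes are differences of log2 signal. Of 11 neural and cerebellar markers, 7 had a signal of at least 100 on all 6 arrays and ATOH1 and MYCN were under 100 on all of them, while 0 of 3 immune and 0 of 3 endothelial markers reached 100 on all arrays. Of the 2 epithelial markers, EPCAM did. HYOU1, an ER chaperone that the UPR induces, rose at 8 h from 2257.8 and 3426.7 in untreated cells to 16884.9 and 16438.5 (limma, adjusted p = 0.00803).

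Most secreted and membrane proteins enter the ER while they are being made. SRP binds the signal sequence as it leaves the ribosome, halts or slows elongation and docks at its receptor, and the chain then passes through the Sec61 channel with help from TRAP, TRAM and Sec63. Signal peptidase cuts the signal peptide off, and signal peptide peptidase cleaves the remnant within the membrane. Proteins with an anchor at their very end cannot use SRP in this way and are inserted by the GET system, and the EMC inserts other transmembrane segments. Components of the SRP-dependent route are known targets of the UPR in several organisms.

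After 8 h of thapsigargin, 16 of the 41 genes rose in the fit that takes the replicate number as a block, and 0 fell. They were SRP19, SRP54 and SRP68 of SRP, SRPRA and SRPRB of its receptor, SEC61A1, SEC61B and SEC63 of the channel, SSR1 and SSR3 of TRAP, TRAM1, SPCS2, SPCS3 and SEC11C of signal peptidase, SERP1, and EMC2. Their log2 fold changes lay between 0.51 and 1.05. Limma with no block, in which the fold changes are the same, called 0 genes. With p unadjusted at 0.05 it had 13 of the 41 higher and 0 lower, against 699 and 852 of all 12839 genes. A local pooled error test, written here after the one the study's methods name, also called 0. Unadjusted it had 7 higher and 0 lower, against 535 and 348 of all genes. Every statement below that a gene rose therefore rests on the blocked fit.

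The 16 genes were 39.0% of those tested. Over all 12839 genes tested, the blocked fit called 4.76% higher and 3.79% lower at 8 h. Limma without the block called 0.646% higher and 0.21% lower. This base was not matched to the 41 genes for signal, and the spread was modelled with signal. In 19 of the 41 genes, 46.3%, both arrays at 8 h lay above both untreated arrays, against 15.3% of all genes. In 3 of them, GET1, CAMLG and EMC10, both lay below, against 26.7% of all genes. The 41 genes had a median log2 fold change of 0.25 at 8 h (0.29 in replicate 1 and 0.31 in replicate 2), and all genes had one of -0.09. The median log2 difference of untreated replicate 1 from untreated replicate 2 was 0.25 over the 41 genes and -0.05 over all genes. This difference enters the spread of the fit without the block and is taken up by the block in the other.

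The count of 16 depended on how the spread was modelled and on single arrays. Without the intensity trend of the spread, the blocked fit called 0 of the 41. It called 7 when untreated replicate 1 was left out, 9 when untreated replicate 2 was, and 10 when the 8 h array of replicate 1 was.

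**Figure D1:**
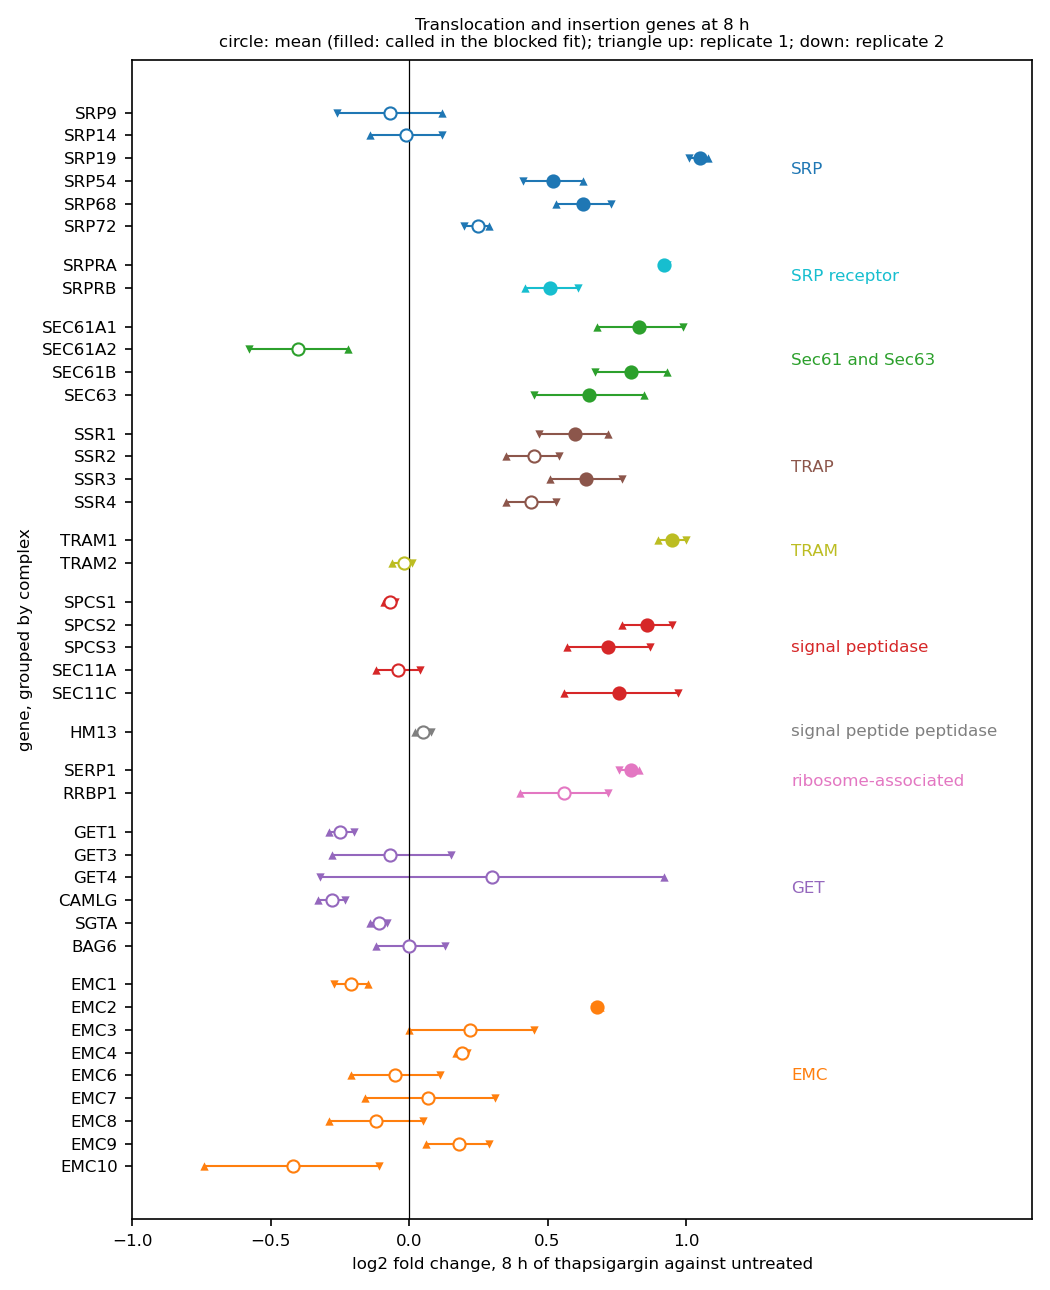
Log2 fold change of the 41 genes after 8 h of thapsigargin against untreated cells (x axis), grouped by complex (y axis). Circles are the means of both replicates, filled where the blocked fit called the gene, and triangles are replicate 1 (up) and replicate 2 (down). SRP19 is farthest to the right with 1.05, the circles of the GET genes lie between -0.28 and 0.30, and EMC2 is the filled circle of the EMC.

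By complex, the medians at 8 h ran from -0.09 for GET to 0.72. The median log2 fold change was 0.38 for SRP (4 of 6 genes above 0), 0.72 for the receptor (2 of 2), 0.72 for Sec61 and Sec63 (3 of 4), 0.52 for TRAP (4 of 4), 0.46 for TRAM (1 of 2), 0.72 for signal peptidase (3 of 5) and 0.68 for SERP1 and RRBP1 (2 of 2). It was 0.05 for HM13, the only gene listed for signal peptide peptidase, -0.09 for GET (2 of 6 above 0) and 0.07 for the EMC (5 of 9). In replicate 1 and replicate 2 the GET median was -0.21 and -0.14, and the EMC median was -0.15 and 0.21. Joined after their values had been seen, the 26 genes outside GET and EMC, HM13 included, had a median of 0.58 (0.52 in replicate 1 and 0.57 in replicate 2) with 15 called higher, and the 15 genes of GET and EMC had a median of -0.05 (-0.15 and 0.11) with 1 called. The difference between these sets was not tested. Read from probe sets without an _s_at or _x_at suffix, which mark probes shared between transcripts, the signal peptidase median was -0.04. TRAM then stood at 0.97, the value of TRAM1 alone, since the TRAM2 probe set so chosen was too dim to be tested.

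**Figure D2:**
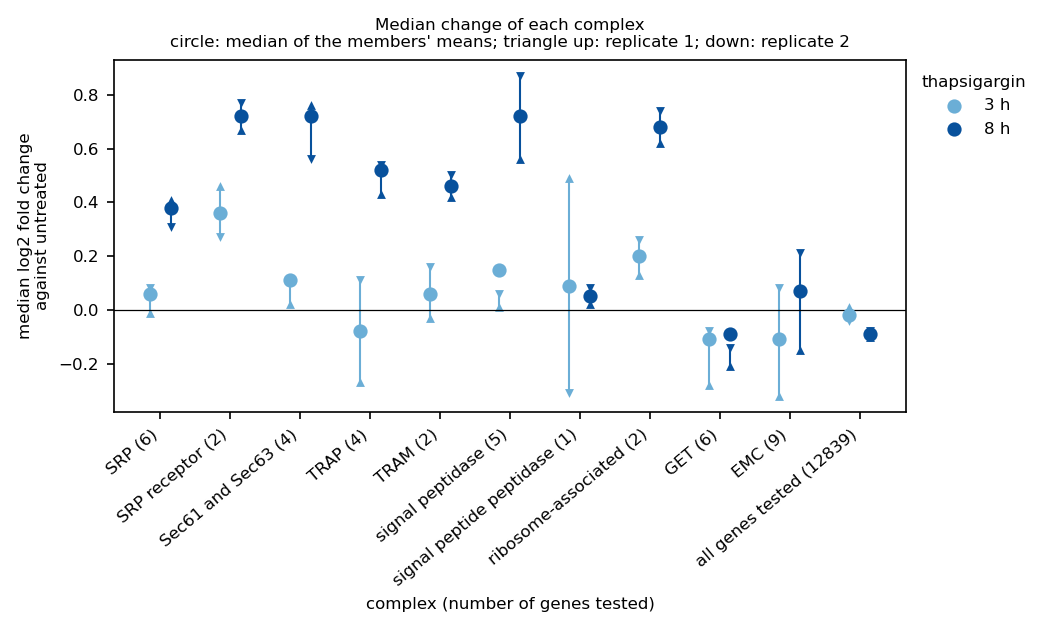
Median log2 fold change against untreated cells (y axis) of each complex and of all genes tested (x axis, with the number of genes) at 3 h and 8 h. Circles are medians of the mean changes and triangles the medians in replicate 1 (up) and replicate 2 (down). At 8 h the medians of SRP, its receptor, the channel, TRAP, TRAM, signal peptidase and SERP1 with RRBP1 lie between 0.38 and 0.72, and those of signal peptide peptidase (HM13), GET, EMC and all genes between -0.09 and 0.07.

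Promoter sequence was a feature that the choice of genes had not used. RefSeq promoters of GRCh38.p14, from 250 bases before to 50 after each start, were given for 36 of the 42 genes, and SRPRA, TRAM1, SPCS1, HM13, GET4 and EMC2 were not among them. They were searched on both strands for known UPR motifs. The core GCCACGT of the sites that XBP1 binds stood in 8 of the 36 genes, or 22.2%, against 3.95% of the 27305 genes in the promoter table. Unlike the listed genes, that base includes many genes too dim to be tested here or without a probe set. The UPRE, TGACGTGG, which overlaps that core on the other strand, stood in SRP19, SSR3 and SSR4, 8.33% against 0.927%. The ER stress element (ERSE), CCAAT and CCACG with 9 bases between them, stood in SERP1, 2.78% against 0.0916%. ERSE-II, ATTGG and CCACG with 1 base between them, was found in 0 of the 36 (0.0696% of all genes), as was TTGCATCA, a C/EBP-ATF element (1.08% of all genes). Of the 9 genes with a match to the core, the UPRE or the ERSE, 8 were called higher at 8 h in the blocked fit, and the other was SSR4. Of the 26 tested genes of the list with a promoter and no such match, 5 were called. Over all genes tested, 94 of 671 with a match (14.0%) and 422 of 9790 with a promoter and no match (4.31%) were called higher. A match is a description of these letters and not a measured binding site.

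The windows below hold these matches in capitals with up to 20 bases on each side, 5′ to 3′ on the strand of the gene, and are shown because they hold the letters counted above. In SERP1 and SEC11C the motif is read on the opposite strand, in SRP19, SSR3 and SSR4 the capitals span the core and the UPRE, and the window shown for SSR1 and SSR3 holds 1 of 2 or more matches. The match began 232 bases before the start in SERP1, 113 in SRP19, 8 in SRPRB, 73 in SEC63 and 138 in SSR1. It began at 41 in SSR3, 130 in SSR4, 119 in SPCS2 and 41 in SEC11C. The value for SSR3 is that of the UPRE, and its capitals begin 1 base earlier, with the core.
SERP1 (chr3:150546690-150546746, minus strand): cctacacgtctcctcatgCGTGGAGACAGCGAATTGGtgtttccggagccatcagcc
SRP19 (chr5:112861154-112861200, plus strand): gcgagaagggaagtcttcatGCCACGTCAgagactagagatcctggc
SRPRB (chr3:133805787-133805833, plus strand): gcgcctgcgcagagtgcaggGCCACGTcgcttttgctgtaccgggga
SEC63 (chr6:107958255-107958301, minus strand): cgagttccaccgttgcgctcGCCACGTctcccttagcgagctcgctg
SSR1 (chr6:7313311-7313357, minus strand): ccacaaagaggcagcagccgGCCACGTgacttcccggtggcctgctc
SSR3 (chr3:156554139-156554186, minus strand): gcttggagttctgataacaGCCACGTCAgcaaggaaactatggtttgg
SSR4 (chrX:153794518-153794564, plus strand): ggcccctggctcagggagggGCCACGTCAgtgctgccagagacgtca
SPCS2 (chr11:74949127-74949173, plus strand): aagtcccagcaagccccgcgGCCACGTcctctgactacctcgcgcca
SEC11C (chr18:59139823-59139869, plus strand): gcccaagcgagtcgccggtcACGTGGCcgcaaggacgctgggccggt

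SRP recognises the signal sequence. SRP19, which joins the SRP RNA early in assembly of the particle, had signals of 10460.4 and 8144.0 in untreated cells, 14003.2 and 10680.3 at 3 h, and 22133.3 and 16431.0 at 8 h. The groups did not overlap at either time, and the 8 h value was 2.07-fold the untreated one, a log2 fold change of 1.05 (standard error 0.27 without the block and 0.11 with it, adjusted p = 0.187 in limma without the block and 0.000609 in the blocked fit). This was the highest log2 fold change of the 41 genes. SRP54, the GTPase subunit that holds the signal sequence, went from 3788.6 and 5233.3 to 3780.1 and 5206.1 at 3 h and 5845.2 and 6953.6 at 8 h. It was level at 3 h in both replicates and rose at 8 h by 0.52 on the log2 scale (blocked adjusted p = 0.0339). SRP68 was at 3906.4 and 4286.3 untreated, 4733.3 and 4828.5 at 3 h and 5634.6 and 7127.7 at 8 h. It rose by 0.63 (blocked adjusted p = 0.0166). Its partner in the particle, SRP72, had 0.25 on the log2 scale (blocked adjusted p = 0.25). SRP9 and SRP14, which form the domain that slows elongation, had log2 fold changes of -0.07 and -0.01, with 95% intervals in the blocked fit of -0.38 to 0.25 and -0.27 to 0.25. So 3 of the 6 protein subunits of the particle were called and SRP9 and SRP14 were not.

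Both subunits of the SRP receptor rose. SRPRA, the GTPase subunit that meets SRP54, was at 3279.0 and 3479.0 in untreated cells, 6375.2 and 4435.3 at 3 h, and 6204.4 and 6614.6 at 8 h. At 3 h it was already above both untreated arrays, most in replicate 1 (0.96 against 0.35 in replicate 2 on the log2 scale), and its 3 h change of 0.65 had the lowest unadjusted p of the 41 genes in limma without the block, 0.0212, with an adjusted p of 1.0. At 8 h it rose by 0.92 (standard error 0.23 without the block and 0.16 with it, blocked adjusted p = 0.00919). A dimmer SRPRA probe set, with signals of 95.7 to 353.6, gave -0.31 at 3 h and 0.18 at 8 h and was not called. SRPRB, the subunit that anchors the receptor in the membrane, was at 5097.7 and 3325.1 untreated, 4950.9 and 3771.7 at 3 h, and 6798.6 and 5067.3 at 8 h. Its groups overlapped at 8 h and within each replicate it was higher, by 0.42 and 0.61 (log2 fold change 0.51, blocked adjusted p = 0.0365). Its probe set carries the _x_at suffix of probes that may bind other transcripts. When each array was left out of the blocked fit in turn, SRPRB and SRP54 were still called in 2 of 6 cases each. SRP19, SEC61A1, TRAM1, SPCS2 and SERP1 were called in 6 of 6, and the remaining genes in 3 to 5.

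The 2 genes for the channel-forming subunit had changes of opposite sign. SEC61A1, the main channel-forming subunit, was at 3812.8 and 3337.8 in untreated cells, 4629.7 and 3698.1 at 3 h, and 6103.5 and 6622.0 at 8 h. Both 8 h arrays were above all others, and the gene rose by 0.83 (blocked adjusted p = 0.00646). SEC61A2, a second gene for the same subunit, had low signals of 265.7 and 445.0 untreated, 123.0 and 282.0 at 3 h, and 228.9 and 298.5 at 8 h. Its log2 fold change was -0.88 at 3 h and -0.40 at 8 h, with an interval at 8 h of -1.07 to 0.28 in the blocked fit, and it was called at neither time. SEC61B, the beta subunit, stood at 14767.0 and 11034.0 untreated, 14412.7 and 13881.1 at 3 h, and 28160.0 and 17538.4 at 8 h. It rose by 0.80 at 8 h (blocked adjusted p = 0.0114), more in replicate 1 than in replicate 2 (0.93 and 0.67). SEC63, the partner whose J domain brings the chaperone BiP to the channel, was at 2123.2 and 2596.8 untreated, 2236.5 and 2740.1 at 3 h, and 3826.9 and 3536.9 at 8 h, a rise of 0.65 (blocked adjusted p = 0.0287).

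TRAP assists chains at the channel, and all 4 of its genes had both 8 h arrays above both untreated arrays. SSR1, the alpha subunit, was at 16179.5 and 13530.4 untreated, 13240.8 and 14779.8 at 3 h, and 26741.5 and 18694.6 at 8 h, and rose by 0.60 (blocked adjusted p = 0.049). SSR3, the gamma subunit, was at 17460.2 and 12964.0 untreated, 17806.3 and 15142.2 at 3 h, and 24930.5 and 22171.3 at 8 h, and rose by 0.64 (blocked adjusted p = 0.00911). SSR2, the beta subunit, was at 13883.8 and 10246.6 untreated, 10062.5 and 10588.4 at 3 h, and 17729.4 and 14886.9 at 8 h. Its log2 fold change of 0.45 against untreated did not pass (blocked adjusted p = 0.0901). Against 3 h it was higher by 0.65 at 8 h (blocked adjusted p = 0.0389). SSR4, the delta subunit, had a log2 fold change of 0.44 (blocked adjusted p = 0.0764). The 4 subunits thus had values of 0.44 to 0.64 on the log2 scale, and the call of SSR1 lay close to the threshold.

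TRAM1, which lies beside the channel and aids the entry of some signal sequences, went from 3607.0 and 3185.1 to 3696.1 and 3975.0 at 3 h and 6709.4 and 6369.2 at 8 h. It rose 1.93-fold, a log2 fold change of 0.95 (standard error 0.19 without the block and 0.12 with it). The adjusted p was 0.0923 in limma without the block, the lowest of the 41 genes, and 0.00208 in the blocked fit. TRAM2, its paralog, was at 1837.2 and 1983.9 untreated, 1710.3 and 1989.2 at 3 h, and 1766.3 and 1997.4 at 8 h. Its log2 fold change at 8 h was -0.02, with an interval of -0.32 to 0.28 in the blocked fit.

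Signal peptidase has alternative catalytic subunits, SEC11A and SEC11C, beside SPCS1, SPCS2 and SPCS3. SEC11C was at 2113.0 and 1741.9 untreated, 2518.0 and 1820.7 at 3 h, and 3110.2 and 3415.0 at 8 h, and rose by 0.76 (blocked adjusted p = 0.0225). SEC11A was at 5804.9 and 5903.6 untreated, 5676.6 and 5500.3 at 3 h, and 5348.2 and 6072.7 at 8 h, a log2 fold change of -0.04 with an interval of -0.30 to 0.23 in the blocked fit. The accessory subunit SPCS2 was at 6681.6 and 4467.1 untreated, 7622.3 and 5891.3 at 3 h, and 11423.8 and 8632.8 at 8 h, and rose by 0.86 (blocked adjusted p = 0.00226). SPCS3, which the enzyme needs for activity, was at 8325.7 and 3996.9 untreated, 8406.8 and 4880.7 at 3 h, and 12354.8 and 7296.9 at 8 h. Its groups overlapped, and within each replicate it was higher by 0.57 and 0.87 (log2 fold change 0.72, adjusted p = 0.647 in limma without the block and 0.00786 in the blocked fit). SPCS1 had a log2 fold change of -0.07. The other tested probe sets gave lower values, 0.38 and -0.14 for SPCS2 and 0.40 and 0.19 for SPCS3. The SPCS2 probe set with -0.14 had low signals of 52.0 to 113.5. HM13, the signal peptide peptidase, was at 1110.1 and 1484.0 untreated, 1563.9 and 1197.1 at 3 h, and 1127.4 and 1570.4 at 8 h, a log2 fold change of 0.05 from an _x_at probe set. Its probe set without the suffix, with signals of 33.8 and 93.4 untreated and 153.1 and 143.4 at 8 h, gave 1.40 (blocked adjusted p = 0.394).

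SERP1, also called RAMP4, is a small protein that joins the translocon during stress. It was at 22741.0 and 17241.9 untreated, 32447.5 and 23361.9 at 3 h, and 40431.2 and 29259.3 at 8 h. Signals were above both untreated arrays at 3 h and 8 h, with a log2 fold change of 0.48 at 3 h (blocked adjusted p = 0.083) and a rise of 0.80 at 8 h (blocked adjusted p = 0.00196). Another SERP1 probe set, picked after its values were seen, went from 3721.6 and 4158.9 to 9018.1 and 10282.6 at 8 h, a log2 fold change of 1.29 that passed also in limma without the block (adjusted p = 0.042). The third gave 1.14 (blocked adjusted p = 0.00113). The dimmest, with signals of 152.3 to 440.2, had a log2 fold change of -0.80 (blocked adjusted p = 0.153), so 3 of the 4 tested probe sets of this gene were above 0 and passed in the blocked fit, and 1 was below 0. RRBP1, a ribosome receptor of the rough ER, had a log2 fold change of 0.56 (blocked adjusted p = 0.0635).

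**Figure D3:**
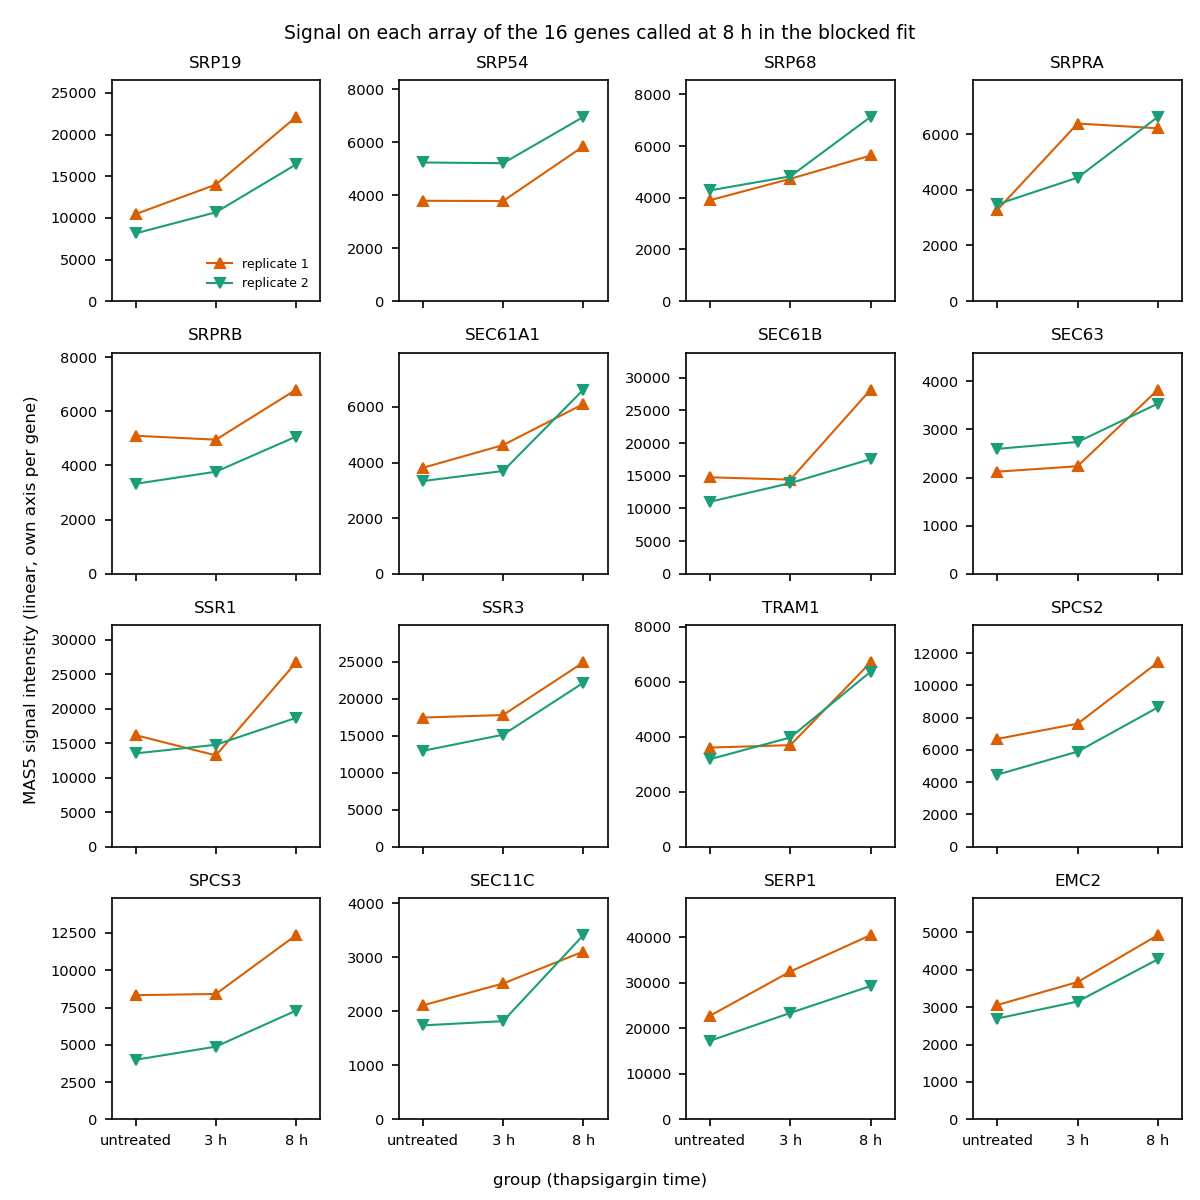
MAS5 signal on each array (y axis, linear and on its own scale for each gene) of the 16 genes called at 8 h in the blocked fit, in untreated cells and after 3 h and 8 h of thapsigargin (x axis). Lines join the arrays of replicate 1 (triangle up) and replicate 2 (triangle down). In every panel the 8 h array lies above the untreated array of the same replicate, while at 3 h SRP54 and SRPRB are near their untreated signals and SRPRA is at 6375.2 in replicate 1.

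The GET system, which hands tail-anchored proteins to the ER membrane, had 0 of 6 genes called at 8 h, and with p unadjusted 0 were under 0.05 in either limma fit. GET4, part of the complex that loads the targeting factor, had the largest change, from 493.6 and 682.2 to 484.8 and 582.6 at 3 h and 933.4 and 546.2 at 8 h. The replicates went apart (0.92 in replicate 1 and -0.32 in replicate 2), and the log2 fold change was 0.30 with an interval of -0.33 to 0.93. The receptor genes GET1 and CAMLG had -0.25 and -0.28, with both 8 h arrays below both untreated arrays in each and blocked adjusted p-values of 0.324 and 0.315. The targeting ATPase GET3 had -0.07, and the chaperones that capture the anchor, SGTA and BAG6, had -0.11 and 0.00.

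In the EMC, 1 of 9 genes was called. EMC2, a cytosolic scaffold subunit, was at 3058.2 and 2696.4 untreated, 3671.0 and 3150.6 at 3 h, and 4926.9 and 4279.5 at 8 h. It rose by 0.68 at 8 h (0.69 in replicate 1 and 0.67 in replicate 2, blocked adjusted p = 0.00913). The other 8 subunits had log2 fold changes from -0.42 for EMC10 to 0.22 for EMC3, the subunit with the insertase fold, and blocked adjusted p-values of 0.274 and above. EMC7 had untreated signals of 14111.8 and 5764.1, the widest gap between untreated replicates in the EMC, and a log2 fold change of 0.07.

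For the 25 genes not called at 8 h, the 95% intervals of the blocked fit reached from -1.07 to 0.93 on the log2 scale, so that each upper bound was under 1, a doubling of signal. This did not hold without the block, where the upper bounds of RRBP1, EMC7 and GET4 were 1.17, 1.15 and 1.04. In the blocked fit the intervals of SSR2, SSR4 and RRBP1 lay above 0, at 0.14 to 0.75, 0.16 to 0.73 and 0.22 to 0.91, without passing the adjusted test.

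The 4 paralog pairs of the list were set side by side by the difference between their log2 fold changes. At 8 h, SEC61A1 exceeded SEC61A2 by 1.23 (0.89 in replicate 1 and 1.56 in replicate 2). TRAM1 exceeded TRAM2 by 0.97 (0.95 and 0.99). SEC11C exceeded SEC11A by 0.80 (0.68 and 0.93). The fourth pair, the alternative EMC subunits EMC8 and EMC9, differed by -0.30 (-0.36 and -0.25). Each difference had the same sign in both replicates, and a two-sided exact permutation test of 2 treated against 2 untreated arrays gave 0.333 for each. That is the smallest p this test can give with 4 arrays, so it could not pass a threshold, and it does not use the replicate numbers.

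**Figure D4:**
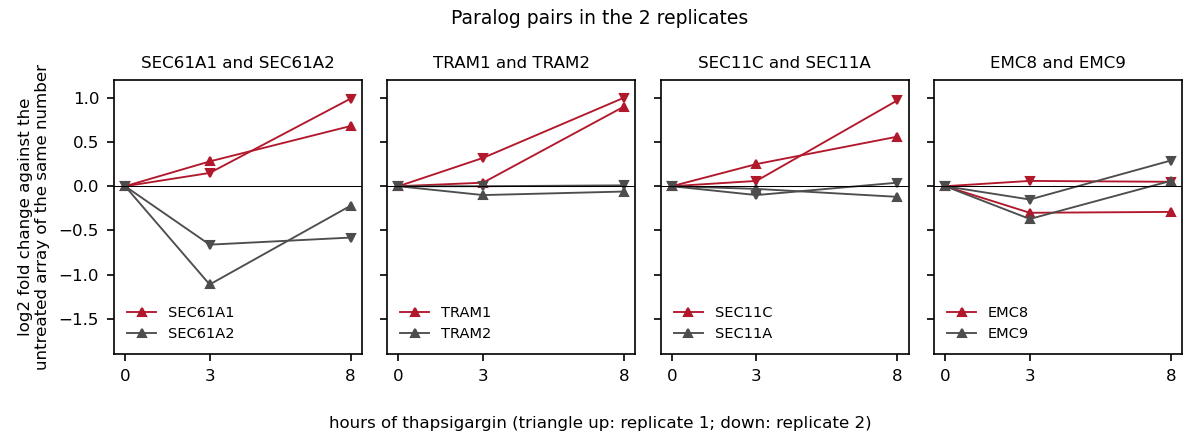
Log2 fold change against the untreated array of the same replicate (y axis) over hours of thapsigargin (x axis) for the 4 paralog pairs, with replicate 1 as triangles up and replicate 2 as triangles down. At 8 h SEC61A1, TRAM1 and SEC11C lie at 0.56 or above in both replicates, while SEC61A2, TRAM2 and SEC11A lie at 0.04 or below.

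The early time point asked whether these genes had moved before 8 h. Limma with no block called 0 of the 41 genes at 3 h, and of all genes it called 0.0701% higher and 0.0% lower. With p unadjusted at 0.05 it had 1 of the 41 higher and 0 lower, against 419 and 159 of all genes. The local pooled error test called 0, with 0 higher and 0 lower unadjusted, against 276 and 26 of all genes. The blocked fit also called 0, against 1.17% of all genes called higher and 0.0779% lower. With p unadjusted it had 4 of the 41 higher and 2 lower, against 934 and 747 of all 12839 genes. The 4 were SRP19 (0.41), SRPRA (0.65), SPCS2 (0.29) and SERP1 (0.48), all of which were called at 8 h, and the 2 were SEC61A2 (-0.88) and GET1 (-0.43). The median log2 fold change of the 41 genes at 3 h was -0.05 and that of all genes -0.02.

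The 8 h and 3 h arrays were also compared with each other in the same 6-array fits, in which the untreated arrays enter the spread and the block but not the fold change. In the blocked fit 7 of the 41 genes, 17.1%, were higher at 8 h and 0 lower, against 1.53% and 1.72% of all genes. They were SRP19 (0.64), SEC61A1 (0.62), SSR2 (0.65), SSR3 (0.52), TRAM1 (0.77), SPCS2 (0.57) and SPCS3 (0.57). Limma with no block called 0 of the 41, and 0.0% of all genes higher and 0.0% lower. With p unadjusted at 0.05 it had 9 of the 41 higher and 0 lower, against 355 and 649 of all genes. The local pooled error test called 0 of the 41 (2 higher and 0 lower unadjusted, against 214 and 300 of all genes). SEC61A1 had a blocked adjusted p of 0.05 when rounded, and the blocked fit called 0 of the 41 when the 3 h array of replicate 1 was left out, 2 when the 8 h array of replicate 1 was, and 4 when the 3 h array of replicate 2 was. SERP1 and SRPRA, the genes with the highest 3 h values, had 8 h against 3 h values of 0.32 and 0.27 and were not called.

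Other probe sets of the same genes gave a second reading that the choice of the brightest probe set had left out. Of the 16 called genes, 11 had 25 further tested probe sets, of which 23 had a log2 fold change above 0 at 8 h (median 0.76) and 14 were called higher and 0 lower in the blocked fit. The 24 further probe sets of the other genes had a log2 fold change above 0 in 18 cases (median 0.09, highest 2.40), and 0 were called higher and 0 lower. Each of the 5 further probe sets of SSR1 was called, with log2 fold changes of 0.77 to 1.14, above the 0.60 of its brightest probe set. TRAM1 gave 1.13 and 0.97 from its others, SEC61A1 gave 1.10, and the probe sets of SEC63 gave 0.76, 0.06 and 1.26. Probe sets of 1 gene share the same RNA and are not independent replicates. The 11 genes were chosen by a call on these same arrays, so their further probe sets are not separate support. The share called over all probe sets tested was not counted. Over all genes, each read from its brightest probe set, it was 4.76% higher and 3.79% lower.

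A further list of 21 genes of the same pathway, of which 19 were tested, held further factors, among them MMGT1, the EMC subunit also known as EMC5, with 0.09 at 8 h. At 8 h limma without the block called 1 of them higher and 0 lower, HYOU1. The blocked fit called 3 higher and 0 lower. They were HYOU1 (2.58), HSPA5 (1.70), which encodes BiP, the ER chaperone that pulls chains through the channel, and SGTB (0.81), a paralog of SGTA. HSPA5 was at 16614.5 and 18933.2 untreated, 73709.4 and 41566.7 at 3 h, and 75398.1 and 44209.5 at 8 h, so its 8 h signals lay near those of 3 h. It was called at 3 h (1.64, blocked adjusted p = 0.00629), as was HYOU1 (1.69, blocked adjusted p = 0.00101). SGTB was at 1035.9 and 1384.1 untreated, 945.0 and 1206.0 at 3 h and 2137.5 and 2064.2 at 8 h (blocked adjusted p = 0.0185). SGTB and HYOU1 were also higher at 8 h than at 3 h, by 0.98 and 0.90 (blocked adjusted p = 0.0185 and 0.0221). SEC62, which works with SEC63, had a log2 fold change of 0.43 (blocked adjusted p = 0.081). The median of the 19 genes at 8 h was 0.20.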

How the data were processed

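Daoy RNA, untreated or after 3 h or 8 h of thapsigargin, was hybridised to 6 Affymetrix arrays, 2 per group. The deposited values are linear MAS5 intensities, which the authors had scaled on each array to a trimmed mean (500.07 to 500.08 here). Here signals were log2-transformed, and the 27616 of 54675 probe sets that reached 100 on 2 or more arrays were tested with limma 3.58.1 in R 4.3.3 (lmFit and eBayes with an intensity trend, two-sided, Benjamini-Hochberg over the probe sets tested, threshold 0.05). Each gene is represented by its brightest own probe set (mean log2 signal), with names from GEO's platform annotation, and 0 symbols changed when matched to RefSeq by Entrez identifier. In it 41097 probe sets had 1 symbol, 1801 several and 11777 none, and no gene was named from several. Detection calls were not used.

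The fit without a block was the planned one and the blocked fit, with the replicate number as a term, its alternative. Arrays of the same number deviated from their group means together (correlations across probe sets of 0.259 to 0.323), so the numbers were taken to pair the samples, as in 2 independent experiments. The sources used here say no more of shared cultures, and p-values thus cover the spread among the 6 arrays of these 2 experiments. Alternatives were a local pooled error test, other normalizations, filters, floors, pseudocount and probe set rules. Others were no intensity trend, only the 4 arrays compared, and each array left out in turn. The local pooled error test was written here. The study's own program was not run, and its calls may differ.

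Values on every array are given for genes called in either fit and for the gene of each complex with the largest change at 8 h. The genes and lists were chosen with earlier results of these data known. Promoters came from RefSeq (GRCh38.p14). Fits were tested on simulated data. Python 3.11.15, pandas 2.3.3 and matplotlib 3.10.9 were used. With arrays, the number per group limits the precision.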

Additional observations from a re-analysis of the deposited data

Results flagged for a closer look

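In 2 of the 41 genes both arrays lay below both untreated arrays at 3 h and above them at 8 h. SRP72 was at 7176.7 and 7132.2 untreated, 6450.6 and 6767.7 at 3 h and 8788.5 and 8219.8 at 8 h, a log2 difference between 8 h and 3 h of 0.36 (limma adjusted p = 0.826 without the block and 0.148 with it). EMC9 was at 1282.2 and 1197.4, 990.9 and 1078.9, and 1340.4 and 1469.0, a difference of 0.44 (adjusted p = 0.787 without the block and 0.193 with it). They were flagged by the order of the arrays alone, and neither difference passed the test. How many of all genes share this order was not counted. Of the 12839 genes tested, 2113 had both arrays below both untreated arrays at 3 h, and 1969 had both above at 8 h.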

How the results depend on the processing

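The replicate block raised the count of genes higher at 8 h from 0 to 16 and of those higher at 8 h than at 3 h from 0 to 7. Without a block, quantile normalization gave 2 (SRP19 and SERP1) at 8 h, probe sets without _x_at or _s_at gave 1 (SERP1), and 0 was found under every other alternative run. Within the blocked fit, which was varied after seeing the data, the 8 h count was 0 without the intensity trend, 7 to 17 with an array left out, and 11 to 17 under the other settings. The 8 h against 3 h count was 14 with median centring, 3 with signals under 100 raised to 100, 0 without the intensity trend, 4 with the mean of all probe sets and 0 to 9 with an array left out. Median centring shifted the median of all genes by -0.113 at 3 h, 0.083 at 8 h and 0.196 between them.

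Medians of the complexes moved by more than the spread between replicates as follows. With median centring they were -0.05 for SRP, 0.00 for Sec61 and Sec63, 0.04 for signal peptidase and 0.08 for SERP1 with RRBP1 at 3 h, and 0.47 for SRP, 0.80 for the receptor, 0.60 for TRAP, 0.54 for TRAM, 0.13 for HM13 and -0.01 for GET at 8 h. With the mean of all probe sets they were 0.06 for the receptor, 0.05 for signal peptidase and 0.50 for SERP1 with RRBP1 at 3 h, and 0.51, 0.36 and 0.83 at 8 h, with 0.54 for HM13. With probe sets without _x_at or _s_at they were -0.07 for signal peptidase and 0.52 for SERP1 with RRBP1 at 3 h, and 0.67 for TRAP, 0.97 for TRAM, -0.04 for signal peptidase, 1.40 for HM13, 0.91 for SERP1 with RRBP1 and -0.18 for GET at 8 h. Under that rule TRAM2, GET4 and BAG6 dropped out, as the probe sets chosen for them were too dim to be tested. The TRAM value is thus TRAM1 alone, and RRBP1 was read from signals of 83.4 to 151.2. SGTA, with no other probe set, kept its _s_at one. With an array left out, the 8 h medians ranged from 0.32 to 0.47 for SRP, 0.58 to 0.85 for the receptor, 0.52 to 0.74 for Sec61 and Sec63, 0.36 to 0.69 for TRAP, 0.19 to 0.90 for signal peptidase, -0.19 to 0.29 for HM13 and -0.26 to 0.07 for GET. The 3 h medians ranged from 0.13 to 0.59 for the receptor, 0.03 to 0.12 for Sec61 and Sec63, -0.09 to 0.39 for signal peptidase and -0.28 to 0.00 for GET. The cause of these shifts was not tested, and 2 arrays per group limit every value.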
